A study of Mus musculus with 11 samples.

Results

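Th, Gch1, Ddc, Dbh, Cyb561 and Slc31a1 code for the enzymes of noradrenaline synthesis and for the proteins that supply a pteridine cofactor, ascorbate and copper to them. The 6 genes were taken by name from the 19444 genes of the deposited table, and all 6 were found. Their levels were described in every cluster of sympathetic neurons, in the 3 sets of animals, on the plates and in single cells, with the cells of cluster 4 divided by their Th level.

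Tyrosine hydroxylase (Th) converts tyrosine to L-DOPA in the rate-limiting step of catecholamine synthesis, and it needs iron and tetrahydrobiopterin, whose synthesis starts with GTP cyclohydrolase (Gch1). Aromatic amino acid decarboxylase (Ddc) makes dopamine from L-DOPA with a vitamin B6 cofactor, and dopamine beta-hydroxylase (Dbh), a copper enzyme of the synaptic vesicle, makes noradrenaline from dopamine while it oxidises ascorbate. Cytochrome b561 (Cyb561) carries electrons across the vesicle membrane to renew that ascorbate, and the membrane transporter CTR1 (Slc31a1) takes copper into the cell.

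Neurons of the stellate ganglia, which send sympathetic axons to the forelimb, the heart and brown fat, came from 6 male C57BL/6J mice aged 6 to 8 weeks. Each mouse had received the axonal tracer CTB-488 in a forelimb and CTB-555 in the iBAT 3 days before harvest, so that no uninjected animal was in the study. Ganglia of 2 mice were pooled into each of 3 sets, and single cells were sorted into 11 plates, numbered 1 to 4 in Set 1, 5 to 8 in Set 2 and 9 to 11 in Set 3. The table held 878 of the 1039 cells that the submitters state were collected.

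The authors' clusters 1, 2, 3 and 4 held 388, 335, 101 and 54 cells. Cluster 3 was divided here at the widest gap in total counts, into 47 cells with at least 52105 counts and 54 cells with at most 18608. Median totals were 28396 counts a cell in cluster 1, 40121 in cluster 2, 68061 in the high-count cells of cluster 3, 2684 in its low-count cells and 35488.5 in cluster 4. Of 10 markers of sympathetic neurons in the table, 10 stood at 1 count per 10000 or more in clusters 1 and 2, and 9 did so in cluster 4 and in the high-count cells of cluster 3. Cluster 4 held RNA of the acetylcholine pathway. Vip, a peptide of cholinergic sympathetic neurons, stood at 54.1 ± 4.15 counts per 10000 there (SD, n = 3 sets) and at 0.215 ± 0.120 in cluster 1. Glial markers summed to 11.5 to 19.7 counts per 10000 over the sets in cluster 4, against 7.41 to 8.87 in cluster 1 and 8.44 to 11.1 in cluster 2, with 3 of 11 glial markers at 1 or more in cluster 4. A set is the replicate throughout, so n = 3, and p-values over clusters that were themselves made from these cells measure how well a difference repeats over the sets. Values are counts per 10000 counts of a cell from sequencing of 3′ ends, and no gene's level is ranked against another's.

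Of the 6 genes, 5 had a RefSeq promoter entry (build GRCm38.p6), and 4 of those 5 held the motif TGACG or its reverse complement CGTCA in the 250 bases before the start of transcription. These 4 windows are printed to show where the motif lies. All 6 genes were lower in cluster 4 (values below), Ddc, whose windows lack the motif, among them. With no member that was not lower, a link of the motif to the level was not tested. The windows are written 5′ to 3′ on the gene's strand, with the motif in capitals.
Th, chr7:142899996-142900245, minus strand: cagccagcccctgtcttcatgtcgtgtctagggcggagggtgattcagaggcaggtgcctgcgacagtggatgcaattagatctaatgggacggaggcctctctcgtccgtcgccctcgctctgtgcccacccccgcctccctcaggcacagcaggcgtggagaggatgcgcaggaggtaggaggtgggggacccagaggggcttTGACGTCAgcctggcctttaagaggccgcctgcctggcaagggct
Gch1, chr14:47189414-47189663, minus strand: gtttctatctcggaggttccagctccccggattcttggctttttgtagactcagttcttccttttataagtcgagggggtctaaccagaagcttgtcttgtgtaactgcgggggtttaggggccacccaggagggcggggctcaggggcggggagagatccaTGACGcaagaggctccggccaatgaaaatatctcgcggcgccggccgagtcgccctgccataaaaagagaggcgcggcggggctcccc
Dbh, chr2:27165257-27165506, plus strand: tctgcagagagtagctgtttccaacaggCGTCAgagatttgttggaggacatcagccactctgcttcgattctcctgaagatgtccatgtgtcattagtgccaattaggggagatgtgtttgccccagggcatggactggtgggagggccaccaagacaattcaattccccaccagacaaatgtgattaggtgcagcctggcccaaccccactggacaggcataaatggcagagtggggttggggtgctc
Slc31a1, chr4:62360451-62360700, plus strand: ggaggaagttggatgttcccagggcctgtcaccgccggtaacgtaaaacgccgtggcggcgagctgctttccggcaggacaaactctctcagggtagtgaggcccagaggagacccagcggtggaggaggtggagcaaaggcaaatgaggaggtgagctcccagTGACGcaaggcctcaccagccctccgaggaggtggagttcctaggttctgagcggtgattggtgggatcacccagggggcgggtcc
In the Th window the 2 matches, which begin 45 and 42 bases before the start, overlap to form TGACGTCA, the palindromic cyclic AMP response element. The Gch1 match begins 88 bases before the start, the Slc31a1 match 86 bases before it and the Dbh match 222 bases before it. Neither of the 2 windows of Ddc holds the motif. Among 32851 promoter windows of the same length, 17.77% held TGACG or CGTCA on either strand and 1.546% held TGACGTCA. A match is a description of the sequence and not a measured binding site.

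The gene bodies lie, on GRCm38, at chr7:142892752-142931128 (minus strand) for Th, chr14:47153895-47189413 (minus strand) for Gch1 and chr11:11814101-11898144 (minus strand) for Ddc. Dbh lies at chr2:27165233-27183200 (plus strand), Cyb561 at chr11:105933702-105953336 (minus strand) and Slc31a1 at chr4:62360727-62391769 (plus strand). The starts taken for the promoter windows are not always those of these gene bodies, and the Th and Dbh windows printed above lie inside them.

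Th carries the first and rate-limiting step. Its mean in Sets 1, 2 and 3 was 45.7, 39.2 and 62.2 counts per 10000 in cluster 1, 55.1, 52.7 and 81.1 in cluster 2, and 39.9, 38.4 and 64.4 in the high-count cells of cluster 3. In cluster 4 it was 21.6, 17.5 and 34.7, below every other neuron class of the same set. Every cell of these 4 classes had at least 2 Th counts, and the lowest Th level of a cell was 16.2 in cluster 1, 21.7 in cluster 2, 12.3 in the high-count cells of cluster 3 and 0.480 in cluster 4.

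Gch1, which supplies the Th cofactor, stood at 4.73, 5.54 and 4.94 counts per 10000 in cluster 1 of Sets 1, 2 and 3. It stood at 4.55, 5.33 and 4.42 in cluster 2 and at 4.81, 6.59 and 5.99 in the high-count cells of cluster 3. Cluster 4 held 0.942, 1.60 and 1.01, so that its highest set lay below the lowest set of each other class.

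Ddc stood at 11.3, 11.9 and 11.0 counts per 10000 in cluster 1, 12.8, 14.5 and 11.5 in cluster 2 and 11.7, 10.3 and 10.5 in the high-count cells of cluster 3. In cluster 4 it stood at 2.77, 3.74 and 3.57. Clusters 1, 2 and the high-count cells of cluster 3 overlapped in their set means, and cluster 4 lay apart.

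Dbh stood at 21.0, 22.9 and 22.1 counts per 10000 in cluster 1, 26.9, 30.7 and 25.4 in cluster 2 and 19.6, 22.3 and 20.9 in the high-count cells of cluster 3. In cluster 4 it stood at 6.64, 7.59 and 6.30. All 3 sets of cluster 2 lay above all 3 sets of cluster 1.

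Cyb561, the electron carrier for Dbh, stood at 8.92, 9.52 and 13.1 counts per 10000 in cluster 1, 11.8, 12.6 and 17.0 in cluster 2 and 8.28, 8.47 and 13.1 in the high-count cells of cluster 3. In cluster 4 it stood at 4.83, 4.51 and 6.21, and the highest value in each class was in Set 3.

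Slc31a1, the copper importer, stood at 9.06, 9.40 and 10.4 counts per 10000 in cluster 1, 10.0, 10.3 and 11.1 in cluster 2 and 8.65, 8.91 and 10.2 in the high-count cells of cluster 3. In cluster 4 it stood at 1.48, 1.79 and 1.42, with no overlap with the other classes.

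**Figure D1:**
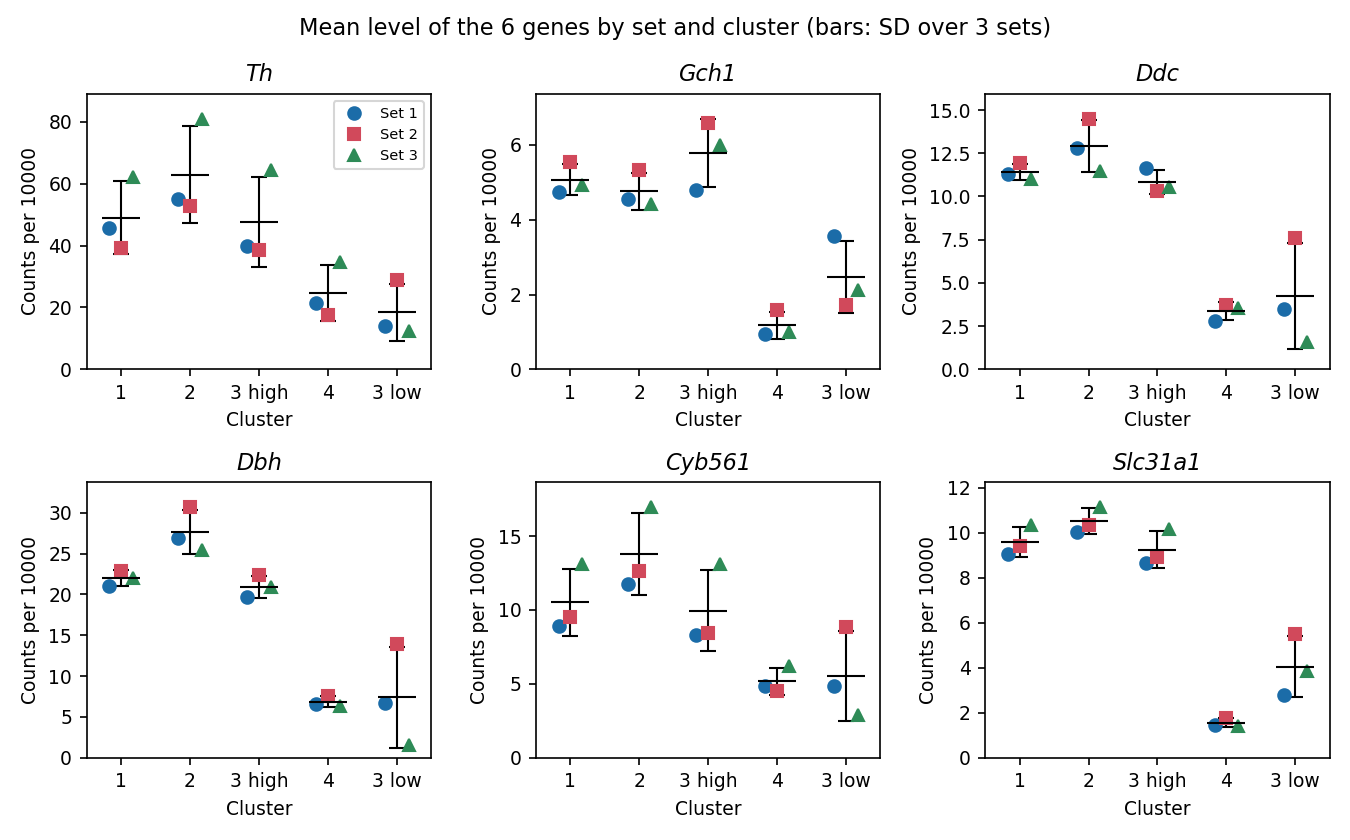
Mean counts per 10000 of each gene (y axis, from 0, with a range of its own in each panel) in clusters 1 and 2, the high-count cells of cluster 3, cluster 4 and the low-count cells of cluster 3 (x axis). Coloured points are the 3 sets, and black lines are the mean and SD over sets. Cluster 4 lies below clusters 1 and 2 in every set for all 6 genes, and Set 3 is highest for Th and Cyb561 in the 4 neuron classes.

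All 6 genes were lower in cluster 4 than in the noradrenergic clusters 1 and 2, and the copper importer had the largest fold of the 6 against each. On linear set means, Slc31a1 was 6.22 ± 1.02 times lower in cluster 4 than in cluster 1 (SD, n = 3) and 6.80 ± 1.03 times lower than in cluster 2. Gch1 was 4.47 ± 0.865 times lower than in cluster 1, Ddc 3.45 ± 0.546 times and Dbh 3.23 ± 0.248 times. Th was 2.05 ± 0.231 times lower and Cyb561 2.02 ± 0.155 times lower, the smallest folds of the 6. Against cluster 2 the folds were 2.63 ± 0.343 for Th, 4.18 ± 0.764 for Gch1, 3.90 ± 0.707 for Ddc, 4.04 ± 0.00358 for Dbh and 2.66 ± 0.194 for Cyb561.

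The differences were tested with limma, which took log2(1 + counts per 10000) of each cell, averaged it within a set and class, and kept the set as a block. Against the mean of clusters 1 and 2, the log2 difference was -2.33 for Slc31a1 (SE 0.0494), -1.83 for Dbh (SE 0.0395), -1.70 for Th (SE 0.0472), -1.70 for Ddc (SE 0.0580), -1.47 for Gch1 (SE 0.0449) and -1.10 for Cyb561 (SE 0.0394). All 6 passed an adjusted p of 0.05, with the largest adjusted p at 3.36e-11, and each was lower in 3 of 3 sets. Of 10564 genes tested, 24.7% passed in either direction and 12.3% passed as lower. Counted from the most negative difference of all genes tested, Slc31a1 ranked 5, Dbh 10, Th 12, Ddc 13, Gch1 15 and Cyb561 27. The 1 added before the log makes differences smaller for genes at low levels, so these ranks depend on level. Their order is not that of the linear folds: Gch1 ranked after Th but had the larger fold. Tested against each cluster alone, all 6 also passed as lower, where 21.3% of genes passed against cluster 1 (9.49% as lower) and 20% against cluster 2 (10.9% as lower).

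Single cells separated most cleanly by Dbh, a gene whose product acts in the last step to noradrenaline. Dbh was below the lowest of the 723 cells of clusters 1 and 2 (10.1 counts per 10000) in 46 of 54 cells of cluster 4, and below their 5th percentile in 54 of 54. Ddc was below the lowest such cell in 21 of 54 and below the 5th percentile in 50. For Th these counts were 19 and 36, and for Cyb561 they were 5 and 44. For Gch1 and Slc31a1 at least 1 cell of clusters 1 and 2 had no count, so that no cell could lie below them, and 47 and 51 of the 54 cells lay below the 5th percentile. Depth limits the low end: the median cell of cluster 4 held 3 counts each of Gch1 and Slc31a1, against 24 of Dbh and 88 of Th.

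The Th value moved with how cells were combined. Its log2 difference was -1.12 with counts summed over cells and median-of-ratios scaling and -1.16 with voom on summed counts, and it passed under both. Cells with little Th made up a share of cluster 4.

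In cluster 4, 14 of 54 cells held fewer than 5 Th counts per 10000, the highest of them at 4.98 and the lowest of the other cells at 5.99. No cell of clusters 1 and 2 or of the high-count cells of cluster 3 was below 10. The 14 cells came from all 3 sets (3 of 12 cells of cluster 4 in Set 1, 7 of 24 in Set 2 and 4 of 18 in Set 3) and from 8 plates. They held 2 to 21 Th counts each. In the low-count wells of cluster 3, which held RNA of neuron, endothelial and stromal markers alike (values below), Th counts ran from 0 to 38 with a median of 5. All 14 cells lay within that range, and 12 of 14 lay at or below the 95th percentile of those wells (17.35 counts). Those wells had a median total of 2684 counts and held neuron markers. The comparison therefore cannot tell a cell's own RNA from RNA of other cells. The 14 cells were not shallow: their median total was 31625.5 counts, against 36614.5 in the other 40.

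Dbh was higher in these cells than in the rest of cluster 4. Dbh stood at 9.84, 9.55 and 7.68 counts per 10000 in the cells under 5 Th of Sets 1, 2 and 3 and at 5.58, 6.79 and 5.91 in the other cells of cluster 4. The lowest of the 14 cells was at 5.72 and the highest at 13.8. In counts, 1 of 14 lay within the range of Dbh in the low-count wells, a comparison with the same limit as for Th. The difference was 0.64 on the log2 scale (SE 0.136, adjusted p = 0.000232, higher in 3 of 3 sets), and it missed the threshold in 1 alternative, the fit without the set as a block (adjusted p = 0.0774). Of 10424 genes tested in this division, 3.04% passed, 1.44% as higher and 1.6% as lower. The division itself was made on Th, so Th was left out of the test, and for the other 5 members the spread was fully pooled across genes in this fit. Their p-values therefore do not measure the spread of each gene over the sets. In each of the 14 cells Dbh was below the 5th percentile of clusters 1 and 2.

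Ddc went the other way. It stood at 2.15, 2.00 and 3.05 counts per 10000 in the cells under 5 Th and at 2.98, 4.46 and 3.72 in the others, a log2 difference of -0.58 (SE 0.153, adjusted p = 0.00791, lower in 3 of 3 sets). The alternatives that lost this call included the fit without Set 2 (-0.42, adjusted p = 0.494). They also included equal depth, with every cell thinned to 15000 counts (-0.40, adjusted p = 0.567). Gch1 stood at 0.982, 2.21 and 1.27 against 0.928, 1.34 and 0.935, a difference of 0.33 that did not pass (95% interval 0.02 to 0.64, adjusted p = 0.369). Cyb561 stood at 6.59, 4.81 and 5.64 against 4.25, 4.38 and 6.37, a difference of 0.19 that did not pass (95% interval -0.08 to 0.47, adjusted p = 0.644).

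Slc31a1 stood at 3.41, 1.49 and 1.87 counts per 10000 in the cells under 5 Th and at 0.835, 1.91 and 1.29 in the others. The set means overlap. In Set 2 the linear mean was lower in the cells under 5 Th while the mean of logs was higher, and 1 of the other cells there held 14.0. The log2 difference was 0.67 (SE 0.157, adjusted p = 0.00161) and 0.72 without that cell (adjusted p = 0.000307). It was 0.36 without Set 1 (adjusted p = 0.378) and 0.66 at equal depth (adjusted p = 0.101). It also missed the threshold with median-of-ratios scaling (0.51, adjusted p = 0.458), with voom (0.62, adjusted p = 0.745) and with a pseudocount of 0.1 (0.69, adjusted p = 0.0896).

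A wider division, below the 5th percentile of Th in clusters 1 and 2 of the same set (32.1, 26.3 and 41.0 counts per 10000 in Sets 1, 2 and 3), placed 39 cells as Th-low and 15 as the others. In Set 1 it left only 1 other cell, so this division was tested in Sets 2 and 3. For the members tested the spread was again fully pooled across genes, so their p-values do not measure the spread between these sets. Slc31a1 stood at 2.18 and 2.30 in the Th-low cells of Sets 2 and 3 and at 0.605 and 0.325 in the others, a log2 difference of 0.89 (SE 0.142, adjusted p = 1.9e-07). Gch1 stood at 1.98 and 1.23 against 0.446 and 0.733, a difference of 0.60 (SE 0.142, adjusted p = 0.00231). Both calls were lost when cells were thinned to equal depth, with differences of 0.68 and 0.66 (adjusted p = 0.0881 and 0.0940). Dbh (0.22, adjusted p = 0.622), Ddc (-0.30, adjusted p = 0.403) and Cyb561 (0.03, adjusted p = 0.976) did not pass. Of 10545 genes, 1.67% did, 0.929% as higher and 0.74% as lower.

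Among the 40 cells at 5 Th or more, Th ran against the copper importer. Once set means and the trend with depth were taken out, Pearson's r over these cells was -0.761 between Th and Slc31a1 and -0.617 between Th and Gch1 (-0.497 and -0.490 over all 54 cells), while Gch1 and Slc31a1 went together at 0.514. Dbh and Slc31a1 also went together (0.432). The median of the 40 cells was 2 Slc31a1 counts, and 31 of 40 held at most 4. The cells highest in Slc31a1, at 14.0, 5.96, 5.74, 4.58 and 4.55 counts per 10000, held 12.3, 12.5, 9.09, 5.99 and 22.0 Th. Each of them held at least 14.6 of the peptide gene Cartpt, against a median of 1.13 over the 40 cells. How far r rests on these cells was not tested. Within cluster 1 the 15 pairs of members had r from 0.0465 to 0.371, and within cluster 2 from -0.0652 to 0.249. The cells share libraries and sets, so these values describe the cells and carry no test. In the cells at 5 Th or more, the level relative to cluster 1 was 1.57 ± 0.135 times lower for Th (SD, n = 3) and 7.93 ± 2.97 times lower for Slc31a1. The corresponding folds were 4.84 ± 0.622 for Gch1, 3.14 ± 0.582 for Ddc, 3.63 ± 0.216 for Dbh and 2.11 ± 0.0567 for Cyb561. Without the cells under 5 Th, the log2 difference from clusters 1 and 2 was -0.88 for Th, given with no test since Th chose the cells, and -2.49 for Slc31a1.

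**Figure D2:**
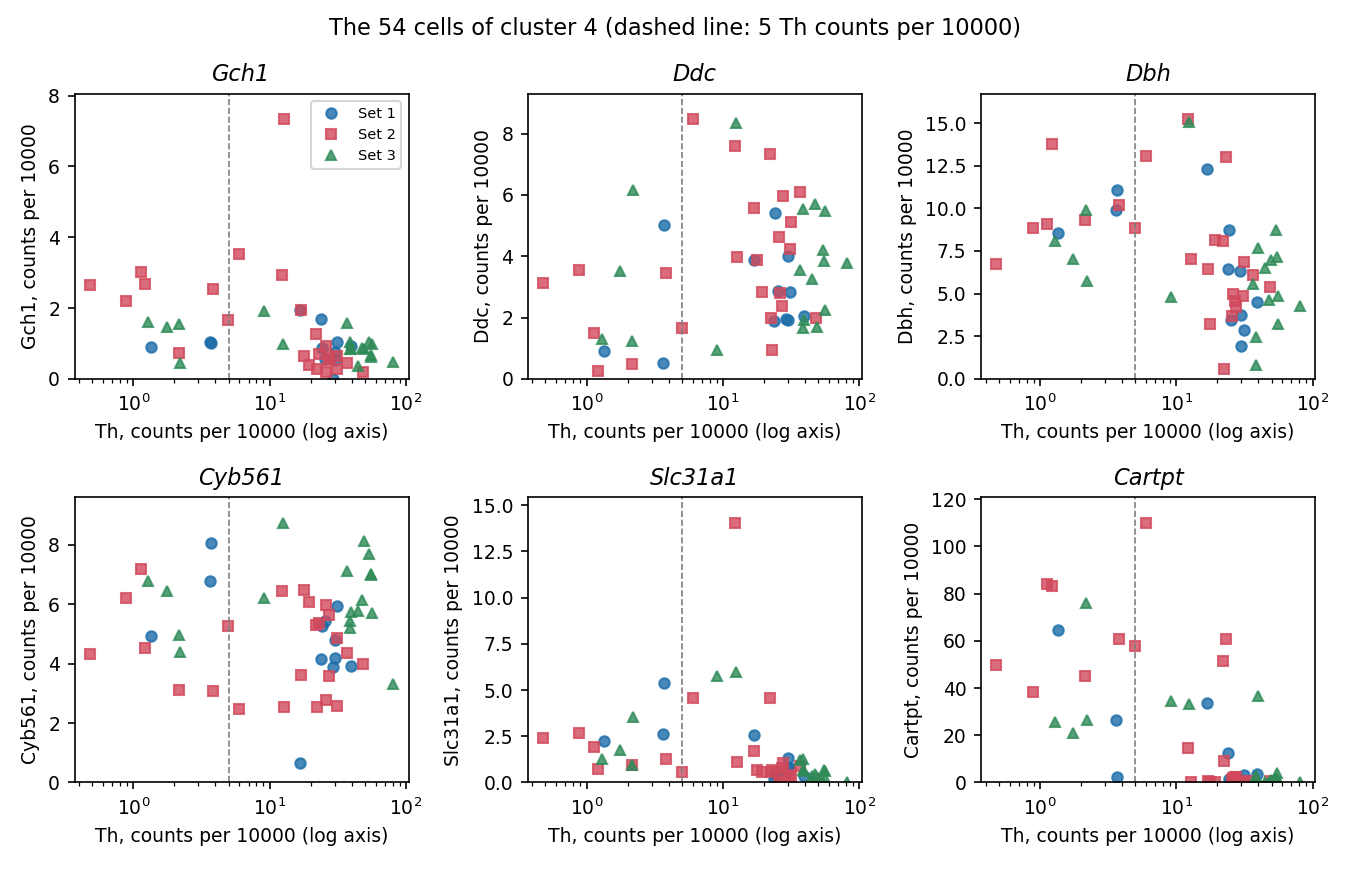
Each point is 1 of the 54 cells of cluster 4, with Th in counts per 10000 on a log x axis and Gch1, Ddc, Dbh, Cyb561, Slc31a1 or the peptide gene Cartpt in counts per 10000 on the y axis, which differs between panels. Symbols mark the 3 sets, and the dashed line marks 5 Th counts per 10000. The 14 cells left of the line hold Dbh between 5.72 and 13.8, and 13 of them hold at least 10 counts per 10000 of Cartpt.

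The cells under 5 Th differed from the rest of cluster 4 in other genes too. Cartpt, a neuropeptide precursor, stood at 31.2, 59.9 and 37.2 counts per 10000 in them and at 6.37, 15.0 and 8.27 in the others (log2 difference 3.14, SE 0.159, adjusted p = 1.6e-22), and 13 of 14 cells held at least 10 against 9 of 40. Thy1, a surface glycoprotein of neurons, stood at 0.709, 0.561 and 0.183 against 6.06, 5.25 and 6.13 (-2.11, SE 0.155, adjusted p = 2.27e-38). The spread was fully pooled across genes for Thy1 as well, and nearly so for Cartpt. By p, the first 5 genes among those higher were, in order, Crip1 (1.56), Ncald (1.93), 6330403K07Rik (1.72), Edn3 (1.78) and Cartpt. The first 5 among those lower were Thy1, Crtac1 (-1.87), Cd63 (-1.73), Ctla2a (-1.73) and Tgfb1 (-1.61). Of 10 cholinergic genes tested, 2 were higher (Sst 1.64, Prima1 0.80), 1 was lower (Slc5a7, the choline transporter, -0.65, in 2 of 3 sets) and 7 did not pass, among them Slc18a3, the vesicular acetylcholine transporter (-0.10, adjusted p = 0.862). Vip stood at 22.4, 57.9 and 33.2 counts per 10000 in the cells under 5 Th and at 69.7, 53.5 and 54.3 in the others, and it was lower in 2 of 3 sets. Its difference of -0.47 did not pass (SE 0.582, adjusted p = 0.876), with a spread that was not pooled with that of other genes. In the division by percentile, tested in Sets 2 and 3, Vip stood at 52.1 and 49.2 in the Th-low cells and at 62.9 and 50.2 in the others. That difference of -0.48 (SE 0.0955) passed at an adjusted p of 0.000113, with a spread fully pooled across genes. Glial markers summed to a median of 15.7 counts per 10000 in the cells under 5 Th and 11.9 in the others. Their part in the results was not tested within this division, since too few cells were left without the neurons richest in glial counts. In the division by percentile, Slc31a1 and Gch1 still passed without those neurons, at 0.65 (adjusted p = 0.0313) and 0.66 (adjusted p = 0.0294).

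Between the noradrenergic clusters, 3 of the 6 genes were higher in cluster 2 than in cluster 1. Linear set means were 1.28 ± 0.0722 times higher for Th (SD, n = 3), 1.26 ± 0.0947 times for Dbh and 1.31 ± 0.0188 times for Cyb561. The log2 differences were 0.36 for Th (SE 0.0544, adjusted p = 0.000422), 0.32 for Dbh (SE 0.0456, adjusted p = 0.00024) and 0.38 for Cyb561 (SE 0.0455, adjusted p = 4.86e-05), each higher in 3 of 3 sets. Of 10564 genes, 8.86% passed, 5.27% as higher and 3.59% as lower. Cluster 2 was deeper than cluster 1, and at equal depth the differences were 0.38, 0.30 and 0.40 and still passed. Without the set as a block none of the 3 passed, with adjusted p of 0.924, 0.381 and 0.574. Ddc (0.18, 95% interval 0.04 to 0.33), Slc31a1 (0.12, 95% interval 0.00 to 0.25) and Gch1 (-0.05, 95% interval -0.16 to 0.06) did not pass, with adjusted p of 0.129, 0.264 and 0.775. With voom on summed counts Ddc and Slc31a1 passed as well, at 0.18 (adjusted p = 0.000571) and 0.15 (adjusted p = 0.000467).

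**Figure D3:**
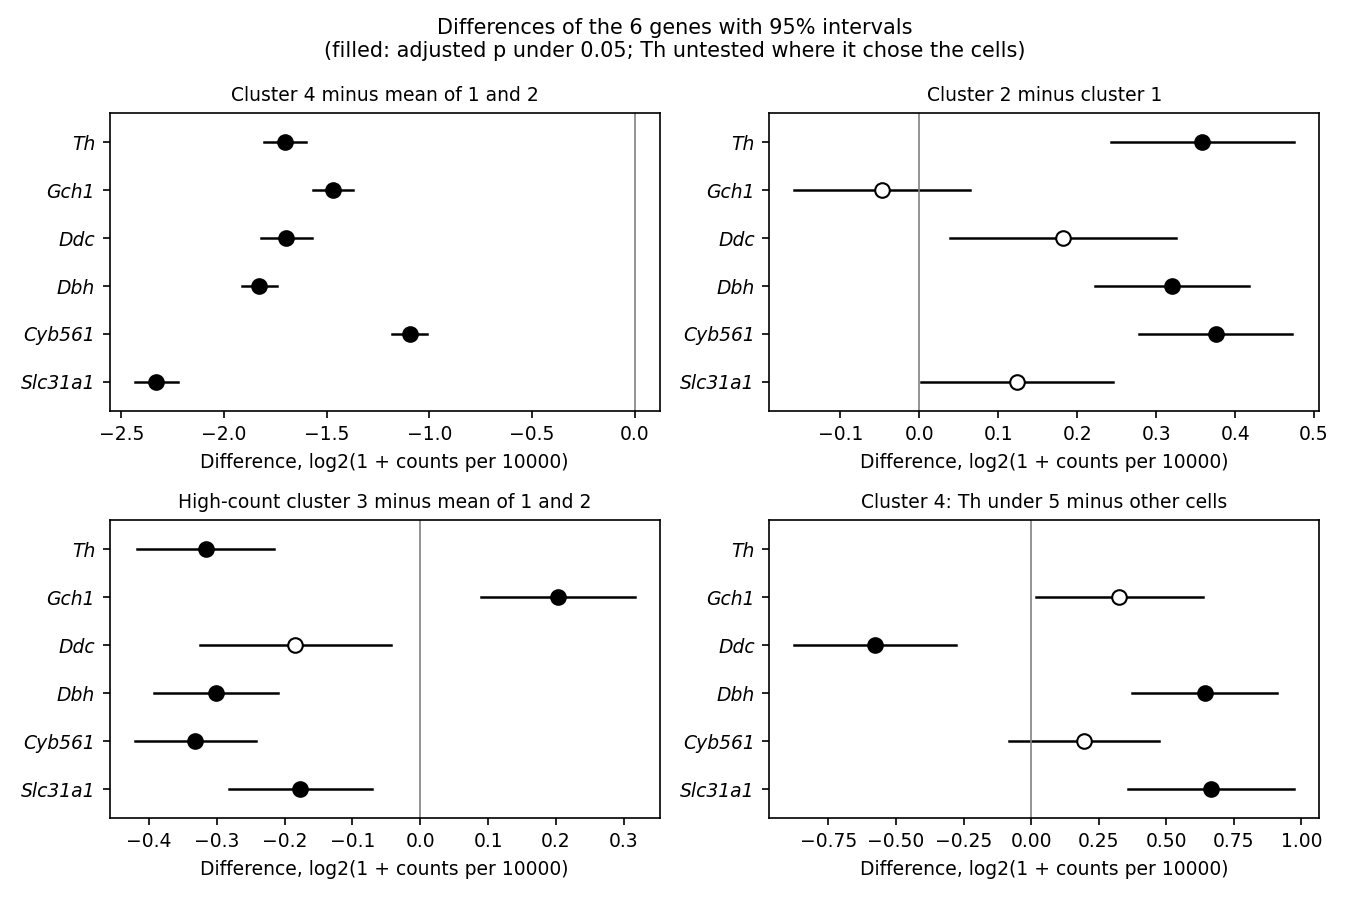
Differences in log2(1 + counts per 10000) (x axis, with a range of its own in each panel) for the genes on the y axis, in 4 comparisons. Circles are estimates from limma and lines are 95% intervals, and filled circles passed an adjusted p of 0.05. All 6 genes lie left of 0 in cluster 4, while in the high-count cells of cluster 3 Gch1 lies right of 0 and the other 5 lie left of it.

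Set 3 stood apart for 2 genes of different steps. Th was 1.46 times higher in Set 3 than the mean of Sets 1 and 2 in cluster 1, 1.64 times in the high-count cells of cluster 3 and 1.78 times in cluster 4, with cluster 2 in between. Cyb561 was 1.42 times higher in cluster 1, 1.39 times in cluster 2, 1.57 times in the high-count cells of cluster 3 and 1.33 times in cluster 4. For Gch1, Ddc, Dbh and Slc31a1 this ratio ran from 0.795 to 1.16. Plates within a set were close: Th in cluster 1 ran from 42.7 to 47.7 counts per 10000 over the 4 plates of Set 1, from 37.9 to 41.3 in Set 2 and from 58.0 to 64.9 over the 3 plates of Set 3. Cyb561 in cluster 1 ran from 8.60 to 9.36, from 9.13 to 10.2 and from 12.6 to 13.9. No plate of Set 3 overlapped a plate of the other sets for these 2 genes, in cluster 1 or in cluster 2. The set is confounded with its animals and plates, so these cannot be told apart, and with 1 set against the others no test was made. Each comparison of clusters above was made within sets.

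**Figure D4:**
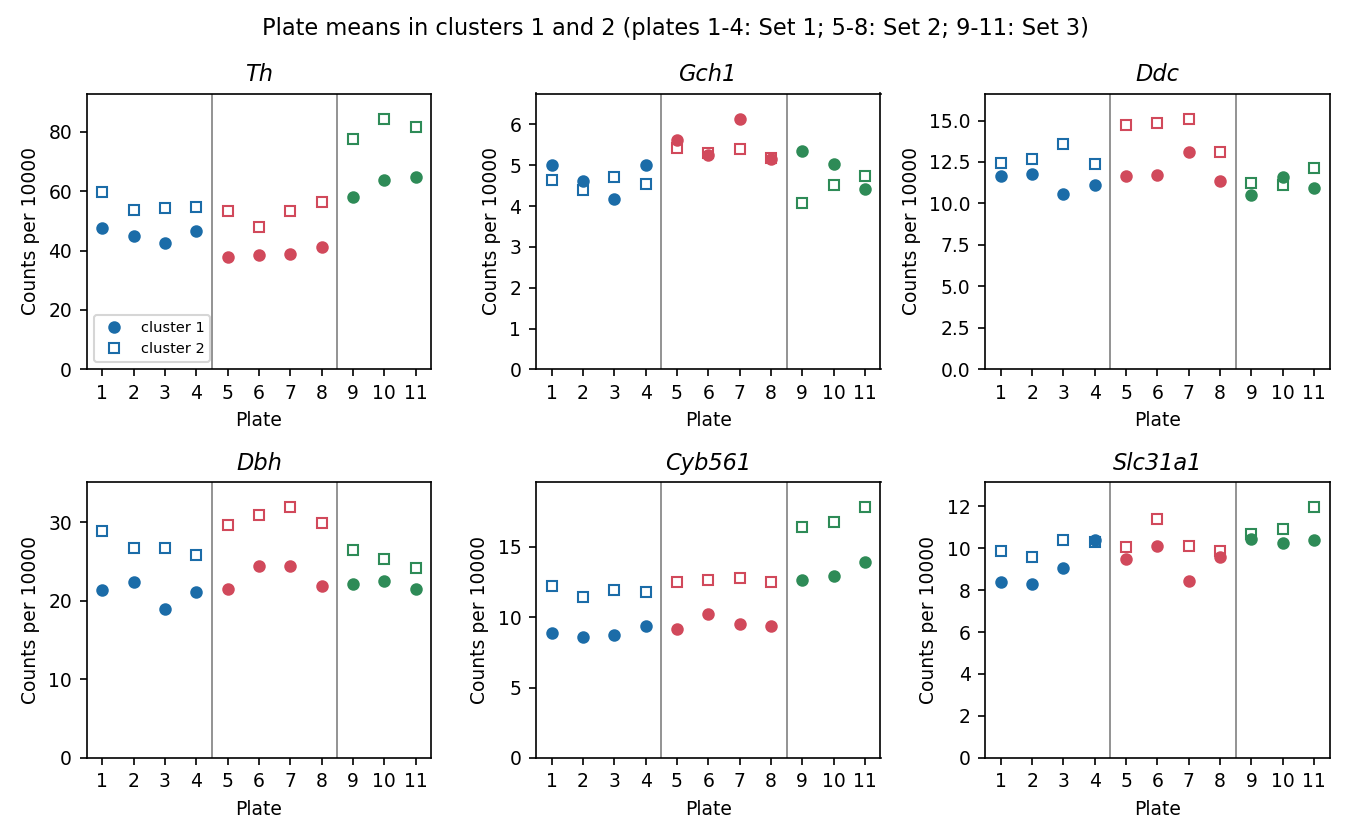
Mean counts per 10000 (y axis, from 0, with a range of its own in each panel) on each of the 11 plates (x axis), for cluster 1 (filled circles) and cluster 2 (open squares). Vertical lines divide Sets 1, 2 and 3. Th and Cyb561 lie higher on all 3 plates of Set 3 than on the 8 other plates in both clusters, and the other 4 genes do not divide the plates in this way in both clusters.

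The high-count cells of cluster 3 held slightly less of most members than the mean of clusters 1 and 2, and lay nearer cluster 1. On linear set means, Th was at 0.963 ± 0.0827 times cluster 1 (SD, n = 3) and 0.749 ± 0.0395 times cluster 2. These ratios were 0.953 and 0.760 for Dbh, 0.939 and 0.716 for Cyb561 and 0.962 and 0.879 for Slc31a1. Ddc was at 0.952 and 0.847, and Gch1 at 1.14 and 1.22. No test was made against each cluster alone. The log2 differences from the mean of clusters 1 and 2 were -0.33 for Cyb561 (SE 0.0428, adjusted p = 1.25e-05), -0.32 for Th (SE 0.0483, adjusted p = 0.000101), -0.30 for Dbh (SE 0.0435, adjusted p = 4.87e-05) and -0.18 for Slc31a1 (SE 0.0502, adjusted p = 0.0193). Gch1 was 0.20 higher (SE 0.0542, adjusted p = 0.0133), and Ddc did not pass (-0.18, adjusted p = 0.0715). Of 10518 genes, 15.9% passed, 11% as higher and 4.92% as lower. These values rest in part on 6 of the 47 cells, described next: without them only Cyb561 (-0.19, adjusted p = 0.00561) and Gch1 (0.23, adjusted p = 0.00716) passed, and Slc31a1 turned to 0.05 (adjusted p = 0.577). Th was then at -0.14 (adjusted p = 0.148), Dbh at -0.10 (adjusted p = 0.141) and Ddc at -0.02 (adjusted p = 0.878). The Gch1 call did not hold at equal depth (0.08, adjusted p = 0.595), without Set 2 (0.17, adjusted p = 0.202) or without Set 3 (0.14, adjusted p = 0.208).

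The 6 cells were low in 5 of the 6 genes and not in Gch1. They were set apart, after the values were seen, by RNA of Atf3 (at least 0.75 counts per 10000) and Sox11 (at least 1), transcription factors known for their induction after axon injury. They came from all 3 sets and from 6 plates, with 52105 to 86844 counts each. Slc31a1 ran from 1.14 to 3.34 counts per 10000 in them and from 5.58 to 16.2 in the other 41 high-count cells, and Ddc ran from 3.07 to 5.01 against 5.20 to 16.3, with no overlap in either gene. Th ran from 12.3 to 22.0 against 24.7 to 101, again with no overlap. Dbh ran from 2.08 to 15.1 against 14.6 to 32.7 and Cyb561 from 1.89 to 5.64 against 4.88 to 21.7, with little overlap. Gch1 ran from 3.79 to 5.59, inside the range of the others (1.24 to 12.1, median 5.50). Slc6a2, the noradrenaline transporter, ran from 0.568 to 5.27 against 10.5 to 33.0. Vip was at most 0.576 in these cells, far below its level in cluster 4.

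Atf3 and Sox11 at these levels also marked 2 cells of cluster 4 and no cell of clusters 1 and 2, among cells of at least 15000 counts. Atf3 alone reached its level in 3 cells of cluster 1 and 2 of cluster 2, with at most 1.21 counts per 10000. The 2 marked cells of cluster 4 held 0.478 and 0.559 Vip and no Slc18a3, whereas the other 52 cells of cluster 4 held at least 12.4 and 0.585. Their Gch1 was 7.33 and 1.96 counts per 10000, and 7.33 was the highest Gch1 of the cluster, above the 3.52 that the other 52 cells reached. Their Slc31a1 was 1.11 and 1.68. Leaving out these cells moved the 6 log2 differences of cluster 4 from clusters 1 and 2 by little, to -1.71 for Th, -1.50 for Gch1, -1.71 for Ddc, -1.83 for Dbh, -1.08 for Cyb561 and -2.33 for Slc31a1.

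**Figure D5:**
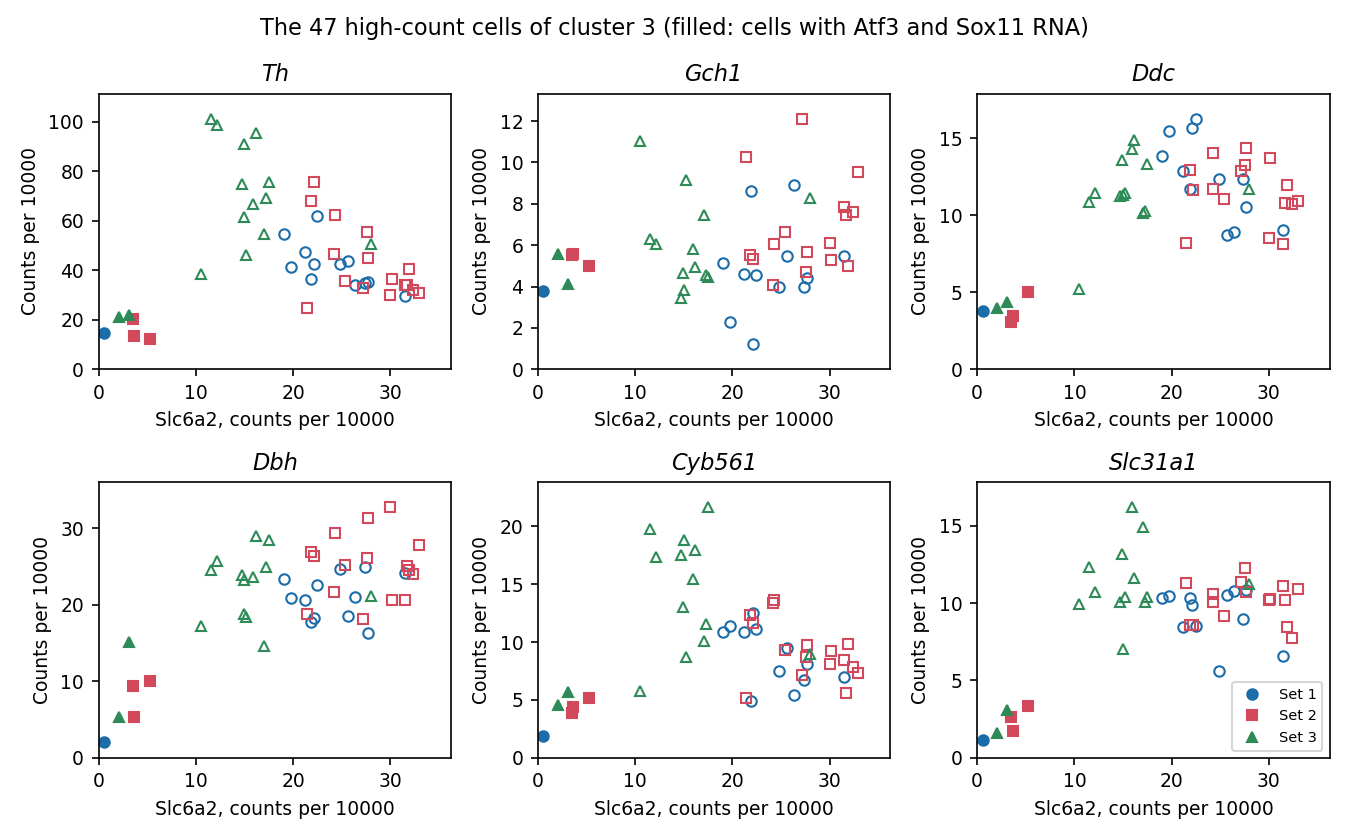
Each point is 1 of the 47 high-count cells of cluster 3, with Slc6a2 in counts per 10000 on the x axis and the named gene in counts per 10000 on the y axis, which differs between panels. Symbols mark the 3 sets, and filled points are the 6 cells with Atf3 and Sox11 RNA. The filled points lie at the low end of Slc31a1 (1.14 to 3.34), Ddc, Th, Dbh and Cyb561, and in the middle of the range of Gch1 (3.79 to 5.59).

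The low-count wells of cluster 3 held RNA of these genes together with markers of several cell types. Sympathetic neuron markers, Th and Dbh among them, summed to a mean of 98.1 counts per 10000 in them (52.5 to 154 over the sets), with 8 of 10 at 1 or more. The same sum was 352 in cluster 1, 222 in cluster 2, 166 in the high-count cells of cluster 3 and 115 in cluster 4. Endothelial markers summed to a mean of 42.4 counts per 10000 in them (16.6 to 56.9 over the sets) and fibroblast markers to 38.8 (0.327 to 65.2), against at most 1.51 and 0.118 in the neuron classes. The wells held a mean of 6.96 Th counts, 3.20 Dbh counts, 2.15 Cyb561 counts, 1.83 Ddc counts, 1.39 Slc31a1 counts and 0.852 Gch1 counts a well. As a share of the mean count in a cell of cluster 4 this was 7.62% for Th, 12.1% for Dbh, 11.2% for Cyb561, 14.4% for Ddc, 17.4% for Gch1 and 27.7% for Slc31a1. For Slc31a1, 47 of 54 cells of cluster 4 lay within the range of counts in these wells. With neuron markers at this level the counts are no measure of RNA outside neurons, and how much of the Slc31a1 level in cluster 4 is RNA from other cells was not tested.

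The lists of related genes that follow are read beside the share of all genes that passed in cluster 4 against the mean of clusters 1 and 2, which was 24.7%, with 12.3% as lower and 12.4% as higher. Of 10 tetrahydrobiopterin genes, 3 were lower, none was higher and the median difference was -0.07, beside a median over all genes of -0.00091. The share that passed in either direction, 3 of 10, is near the 24.7% of all genes, of which 12.3% passed as lower. Against cluster 1 alone 2 were lower and 2 were higher, and against cluster 2 alone 5 were lower. The 3 were Gch1, Qdpr (-0.46), which recycles the cofactor, and Spr (-0.19), which completes its synthesis and passed against cluster 2 alone but not against cluster 1 alone. Qdpr stood at 5.57 ± 0.186 counts per 10000 in cluster 1, 4.31 ± 0.487 in cluster 2 and 3.30 ± 0.105 in cluster 4. Between the noradrenergic clusters Qdpr was lower in cluster 2 (-0.31), and Pcbd1 (0.32), Pcbd2 (0.34) and Akr1b3 (0.31) were higher.

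Of 14 copper handling genes tested, 6 were lower in cluster 4 and none was higher, with a median of -0.04. Besides Slc31a1 these were Atp7a (-0.39), the pump that loads copper into secretory compartments, Commd1 (-0.20), Cox19 (-0.16), the chaperone Atox1 (-0.12) and Slc31a2 (-0.10). Against each cluster alone, Slc31a1 and Atp7a passed against both, Commd1 and Cox19 passed against cluster 1 only and Slc31a2 against neither. Atox1 passed against cluster 2 (-0.29) and was at 0.05 against cluster 1 (adjusted p = 0.543). Atp7a stood at 1.12 ± 0.227 counts per 10000 in cluster 1 and 0.702 ± 0.310 in cluster 4. Of 4 copper enzymes tested, Dbh was lower, Pam (0.41), which amidates neuropeptides, and the mitochondrial gene mt-Co1 (0.48) were higher and Sod1 (0.10) did not pass. The Pam value rests on cluster 2, which held 2.19 counts per 10000 against 3.91 in cluster 1 and 4.11 in cluster 4: the difference was 0.73 against cluster 2 and 0.09 against cluster 1 (adjusted p = 0.339). Of 6 genes for ascorbate and cytochromes of the b561 family, Cyb561 and Gsto1 (-0.17) were lower and 4 did not pass. Gsto1 passed against cluster 2 alone and not against cluster 1 alone (-0.12, adjusted p = 0.137). Neither of the paralogues tested, Cyb561d1 (0.05) and Cyb561d2 (-0.04), passed.

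Genes of storage, reuptake and breakdown were also lower in cluster 4. Of 8 tested 6 were lower and 1 was higher, with a median of -1.09. The noradrenaline transporter Slc6a2 was at -2.94, the vesicular monoamine transporter Slc18a2 at -1.97 and the monoamine oxidases Maoa and Maob at -1.90 and -1.78. Of 10 transcription factors of sympathetic identity, 7 were lower and none was higher, with a median of -0.35, led by Tfap2b (-1.04), Isl1 (-0.74), Gata2 (-0.67) and Hmx1 (-0.58). Of 10 iron handling genes 3 were higher (Pcbp1 0.19, Fth1 0.10, Slc25a28 0.08) and none was lower. Of all genes 24.7% passed in either direction and 12.4% as higher. None of the 10 passed against cluster 2 alone, where Fth1 was at -0.10, and Pcbp1 and Fth1 (0.31) passed against cluster 1. Of 3 vitamin B6 genes 1 was higher (Prosc 0.16), and it passed against cluster 1 alone but not cluster 2 alone. Of 15 genes for Th phosphorylation and its chaperones 3 were higher (Ywhah 0.46, Ywhag 0.20, Ppp2ca 0.16) and 4 were lower (Prkacb -0.38, Camk2b -0.18, Camk2a -0.11 and Prkaca -0.15), with a median of -0.01. Of the 3 that were higher only Ywhah passed against cluster 2 alone. Of 10 cholinergic genes 9 were higher and 1, Ache (-0.17), was lower, the latter against cluster 2 alone but not cluster 1 alone.

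The genes whose levels moved most like each member from cell to cell were sought among 1865 genes over the 777 cells of clusters 1, 2 and 4, after set and cluster means and depth were taken out. Likeness was weak for all 6 members. Among the 5 genes most like Th were Thy1 (r = 0.363), Scg2 (0.348) and Tgfb1 (0.336), and Cartpt was the most opposed gene (-0.571). For Gch1 the highest r was with Slc31a1 (0.319), Chga (0.316) and Anxa5 (0.310), for Ddc with Slc6a2 (0.353), Cplx2 (0.315) and Slc31a1 (0.286), and for Dbh with Slc18a2 (0.314), Cartpt (0.250) and Slc6a2 (0.242). For Cyb561 it was with Chga (0.287), Anxa5 (0.267) and Chrna3 (0.242), and for Slc31a1 with Calm2 (0.351), Anxa5 (0.347) and Gch1 (0.319). Over these pooled cells Cartpt was thus the gene most opposed to Th and among the 5 most like Dbh. A pooled r need not hold within each cluster. For Th and Dbh it was -0.140 over the 777 cells, 0.178 in cluster 1, 0.0786 in cluster 2 and -0.466 in cluster 4. For Th and Ddc it was positive in each, at 0.166, 0.141, 0.00218 and 0.343. The search for like genes was not made within single clusters.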

How the data were processed

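Per the labels' protocols, cells were sorted singly, the cDNA of a plate was sequenced as 1 pool, and reads came from 3′ ends. Per the submitters' processing notes, the authors used STAR 2.5.3a, SAMtools 1.4.1, featureCounts 1.5.3, Seurat and GRCm38. The deposited values are natural log (ln) values of 1 plus counts per 10000, which give whole counts within 0.001 for 100% of non-zero values. The sources used here do not say whether a count is a read or a molecule. The authors' cluster numbers are used as deposited. A deposited list of sort gates was not used, because its wells were not tied to cells. All 96 well barcodes recur on at least 2 plates, so cells were named by plate and barcode. Doublets were not called.

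Each set and class was summarised as the mean of log2(1 + counts per 10000) and tested with limma 3.58.1 (R 4.3.3, trend and robust options, Benjamini-Hochberg adjustment at 0.05), with the set as a block. Genes under a mean of 0.05 counts per 10000 were left out. Deviations of the clusters of 1 set correlated at 0.555 to 0.866, and those of different sets at -0.72 to 0.00171. Cells of a set come from the same pooled mice, so the block was kept. The test was checked on simulated data. Other steps ran in Python 3.11.15 (pandas 2.3.3, numpy 2.4.6, matplotlib 3.10.9, scipy 1.17.1). Alternatives were median-of-ratios scaling, voom on summed counts, a pseudocount of 0.1, no filter, cells thinned to 15000 counts, no block, no neurons from the 10% richest in glial counts, another division of cluster 3 at 10000 counts, the 10th percentile of Th, and each set left out. Added after seeing the data were the settings without cells under 5 Th, without cells with Atf3 and Sox11 and without the cluster 4 cell richest in Slc31a1, and all settings for the cells under 5 Th. The members, lists and comparisons were chosen with earlier results of these data known. Named genes were the members, in each list the 4 smallest p for cluster 4 and the 2 smallest for cluster 2 against cluster 1, the 5 smallest p each way for a division of cluster 4, its cholinergic genes, and the 5 genes most like a member. Other listed genes named where few passed, Cyb561d2 and the genes named with the Atf3 cells were chosen after their values were seen. Some genes that this rule names are not reported here.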

Additional observations from a re-analysis of the deposited data

Results flagged for a closer look

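Slc31a1 in cluster 2 was 11.4 counts per 10000 on plate 6, the highest of the 4 plates of Set 2, whose other 3 plates ran from 9.89 to 10.1. The gap to the next plate took up 0.858 of the whole range, more than Dixon's 95% critical value for 4 plates. It was 1 such case among 24 groups of 4 plates, and chance gives about 1 in 20.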

How the results depend on the processing

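In each of the 3 comparisons of cluster 4 with clusters 1 and 2, 77 of 77 alternative values of the members kept their direction and passed. The share of tested genes that passed moved more than the members did. Without the set as a replicate block it fell from 24.7% to 10.6% for cluster 4 against the mean of clusters 1 and 2, from 21.3% to 8.71% against cluster 1, from 20% to 7.87% against cluster 2, from 8.86% to 2.67% for cluster 2 against cluster 1, from 15.9% to 4.53% for the high-count cells of cluster 3, from 1.67% to 0.560% for Th-low cells by percentile and from 3.04% to 1.47% for cells under 5 Th. Thinned to equal depth it was 4.99% for cluster 2 against cluster 1, 14.2% for cluster 4 against cluster 1, 7.29% for the high-count cells, 0.813% for Th-low cells and 1.504% for cells under 5 Th. With each set left out in turn it ran from 4.06% to 5.32% for cluster 2 against cluster 1, from 14.0% to 14.4% and from 12.7% to 13.9% for cluster 4 against cluster 1 and cluster 2, from 8.37% to 10.1% for the high-count cells and from 1.55% to 2.20% for cells under 5 Th. With no filter, which tests more genes, it was 5.37% (1042 genes against 1670) for the high-count cells and 1.13% (187 genes against 317) for cells under 5 Th. With voom it was 23.3% for cluster 2 against cluster 1. For Th-low cells it was 0.599% without the neurons richest in glial counts, 0.725% with the 10th percentile and 3.04% with the fixed level of 5. Of the calls, the part that was higher moved from 59.5% to 46.2% for cluster 2 against cluster 1, from 69.0% to 51.0% for the high-count cells and from 47.3% to 37.0% for cells under 5 Th with median-of-ratios scaling, and from 55.7% to 70.4% for Th-low cells with a pseudocount of 0.1.

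Of the members, Slc31a1 in the high-count cells turned to 0.052 without the Atf3 cells, Cyb561 in Th-low cells turned to -0.0094 with median-of-ratios scaling, and Cyb561 in cells under 5 Th ran from -0.0094 without Set 1 to 0.36 without Set 3. None of the 6 passed in the high-count cells without the block. Among alternative values of the members, 12 lost a call for cells under 5 Th and 42 kept the main result. For Th-low cells 5 lost a call and 50 kept it, and for the high-count cells 21 lost a call and 48 kept it. Not all of these losses are named here. The percentile division without Set 2 or without Set 3, and the division at 5 Th without glial-rich neurons, left no residual degrees of freedom and gave no value. Causes were not tested. Depth limits Gch1 and Slc31a1 most, with a median of 3 counts each in a cell of cluster 4.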

Other observations

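Htr3a, a serotonin-gated channel, was the gene most opposed to 3 members from cell to cell in clusters 1, 2 and 4, with r of -0.408 for Gch1, -0.367 for Ddc and -0.247 for Cyb561 over 777 cells, and it stood at -0.365 for Slc31a1. These values were taken over the clusters together and not within each. They describe cells that share libraries and sets, and carry no test.

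The cell of cluster 4 with the most Slc31a1 held 14.0 counts per 10000, within the range of clusters 1 and 2. It came from plate 6 and held 12.3 Th, 7.61 Ddc, 15.2 Dbh and 2.93 Gch1, with 14.6 Vip, at a total of 17094 counts and 35.7 counts per 10000 of glial markers. Whether it is a doublet was not tested.

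Among the high-count cells of cluster 3, the 10 pairs of members without Gch1 had r from 0.656 to 0.878 over 47 cells and from -0.334 to 0.804 over the 41 cells without Atf3 and Sox11. The 5 pairs with Gch1 ran from -0.386 to 0.189 and from -0.722 to 0.171. One low-count well of cluster 3 also held Atf3 and Sox11, at 18608 counts, with 9.67 Th, 2.69 Gch1 and 0.537 Slc31a1 counts per 10000.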
